A study of Saccharomyces cerevisiae with 11 samples.

Results

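In budding yeast (Saccharomyces cerevisiae), candidate translation starts were described in 9 genes that regulate entry into meiosis and later commitment to it. These genes were RME1, IME4, RIM15, RIM11, IME1, UME6, IME2, SUM1 and NDT80. The genes were taken by name from the deposited annotation of the SK1 strain, and every row of the deposited table of open reading frames (ORFs) filed under one of them was kept. This gave 403 of 192230 candidate ORFs, in 9 of 6707 annotated genes.

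In the 11 ribosome footprint libraries of the series, SK1 cells had received 3 µM lactimidomycin (LTM), which stalls newly initiated ribosomes on the start codon. The deposited values also draw on a data set named CHX, which the sample labels do not describe. Each of 11 groups had a single library: vegetative cells in rich medium at an OD600 of 0.6 (exponential) or 10 (saturated); cells 0, 1.5, 3, 4.5, 6, 8, 10 and 22 h after transfer to sporulation medium; and MATa/a cells, which do not enter meiosis, at 4.5 h. The table gives 1 value per ORF for all libraries that entered it, and which ones did is uncertain. Levels by time point or culture, replicate errors and the depth per library can therefore not be given, and no test was run.

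As background, IME1 encodes the activator that switches on the early meiotic genes. Rme1 represses IME1 in haploid cells, while the methyltransferase Ime4 and the kinases Rim15 and Rim11 act in favour of entry. Ume6 binds the promoters of early genes, represses them in growing cells and recruits Ime1 to them in starved diploid cells. The kinase Ime2 acts next, and Ndt80 then activates the middle genes, which the repressor Sum1 had kept off; NDT80 is itself among the genes that Sum1 represses.

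Each candidate starts at AUG or at 1 of the 9 codons that differ from it in a single base (near-cognate codons). It carries a forest score from 0 to 1, the output of a random forest, and is called rated here above 0.5. LTM evidence is the authors' score for footprints at the start codon in the LTM data, and CHX evidence is the like score from a data set named CHX. Neither has a stated scaling, so values are compared only between starts of the same gene, or as ratios to the annotated start of that gene. Of the 403 candidates, 69 were rated (17.1%), beside 13.5% of all candidates in the table. Rated ORFs comprised all 7 annotated ORFs that the table holds for these genes (93.3% over the whole table), 37 upstream ORFs, which begin and end before the annotated start, 3 of 8 ORFs that run over the annotated start in another frame (20.2% in the table; near-cognate ones 2 of 7, beside 16.8%), 1 of 4 N-terminal extensions and 21 of 236 ORFs inside coding regions in another frame (8.90%, beside 10.3%). The extension candidates were all near-cognate, a kind rated in 3.64% of cases in the table, where AUG extensions were rated in 40.6%. Of internal AUG starts 12 of 47 were rated (25.5%, beside 23.0%) and of internal near-cognate starts 9 of 189 (4.76%, beside 7.45%). None of 42 truncations was rated, with scores from 0.00380 to 0.291, beside 2.71% in the table. The single ORF over a stop codon (7.87% in the table) and the 4 downstream ORFs (2.70%) were not rated either. Taking internal ORFs, truncations and ORFs over the stop codon as 1 class, 21 of 279 were rated (7.53%, beside 8.56%).

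Sequences around the starts that carry these results are shown first. They come from the S288C reference (RefSeq, build R64), because the SK1 genome was not used here. Each was placed by counting bases from the AUG of its own gene, on that gene's strand, and all but that of the RIM15 extension open an ORF of the same length in S288C. The start codon is in capitals, with 12 bases before it.
IME1 UUG, 139 nt before the AUG, chrX:605776-605802: cgaccagtagtaTTGttaaagattaaa
IME1 CUG, 75 nt before, chrX:605712-605738: aacaaattcctaCTGgcacccattact
IME2 AUA, 252 nt before, chrX:221126-221152: ctatctttcaaaATAgtttacagttac
IME2 UUG, 210 nt before, chrX:221168-221194: tcccttttcagtTTGttaccccttctc
IME2 GUG, 82 nt before, chrX:221296-221322: gaaaagttaatcGTGttcttaaatatt
RIM11 UUG, 134 nt before, chrXIII:545979-546005: ctttctggcgcaTTGcattttaacacc
RIM11 ACG, 39 nt before, chrXIII:546074-546100: ttacattacaacACGgcaacactaatc
RIM15 AUU extension, 77 nt before in S288C and 75 nt in SK1, chrVI:74490-74516: aactcatcaagcATTttcccttttttt
RIM15 UUG, 44 nt before, chrVI:74457-74483: ctttcctttctcTTGcctcatttgata
SUM1 GUG, 130 nt before, chrIV:1084432-1084458: attttatcaaaaGTGtcagcaaacaga
SUM1 GUG, 64 nt before, chrIV:1084366-1084392: atttagtcgctaGTGgtattattgaga
NDT80 UUG, 84 nt before, chrVIII:356465-356491: ttgccctccattTTGtgtcacctattt
NDT80 annotated AUG, chrVIII:356549-356575: aaagcgcttaaaATGaatgaaatggaa
NDT80 internal AUG, 37 nt after, chrVIII:356586-356612: cagtattacaggATGatctcgtatcca

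The leaders of these genes held many rated starts, nearly all of them near-cognate. Of 101 upstream candidates in 8 genes, 37 were rated (36.6%), beside 22.0% of the 31402 upstream candidates in the table. Near-cognate starts were rated in 35 of 90 cases (38.9%, beside 19.4% in the table) and AUG starts in 2 of 11 (18.2%, beside 29.3%). The share depended on the cut-off: above 0.9 it was 0.990%, beside 1.15% in the table. By codon, UUG was rated in 9 of 19 candidates (33.1% in the table), AUA in 7 of 14 (16.7%), CUG in 5 of 10 (26.2%), GUG in 5 of 9 (20.6%), AUU in 4 of 18 (16.7%), ACG in 2 of 4 (19.3%), AUC in 2 of 8 (10.8%) and AAG in 1 of 6 (4.07%). AGG was rated in none of 2, beside 4.44%. Starts of 1 leader are not independent of each other: 19 of the 37 shared their stop codon with another rated start, and the 37 ended at 26 stop codons.

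The rated upstream ORFs were short and lay near the gene. They had 3 to 46 codons with a median of 11, where the median over all rated upstream ORFs of the table was 10. Their starts lay at a median of 130 nt before the annotated AUG, and those of the unrated candidates at 224.5 nt, beside 124 and 198 nt in the table. Within 250 nt of the AUG 34 of 72 were rated (47.2%, beside 26.4% in the table), and farther out 3 of 29 (10.3%, beside 13.9%). The ORFs ended between 12 and 387 nt before the AUG. In S288C, 32 of the 37 could be placed at the same distance, and 15 of these had an A 3 bases before the start (46.9%), beside 40.2% of rated upstream ORFs placed in the table. Of 48 unrated candidates placed, 11 had an A there (22.9%, beside 34.6%).

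**Figure D1:**
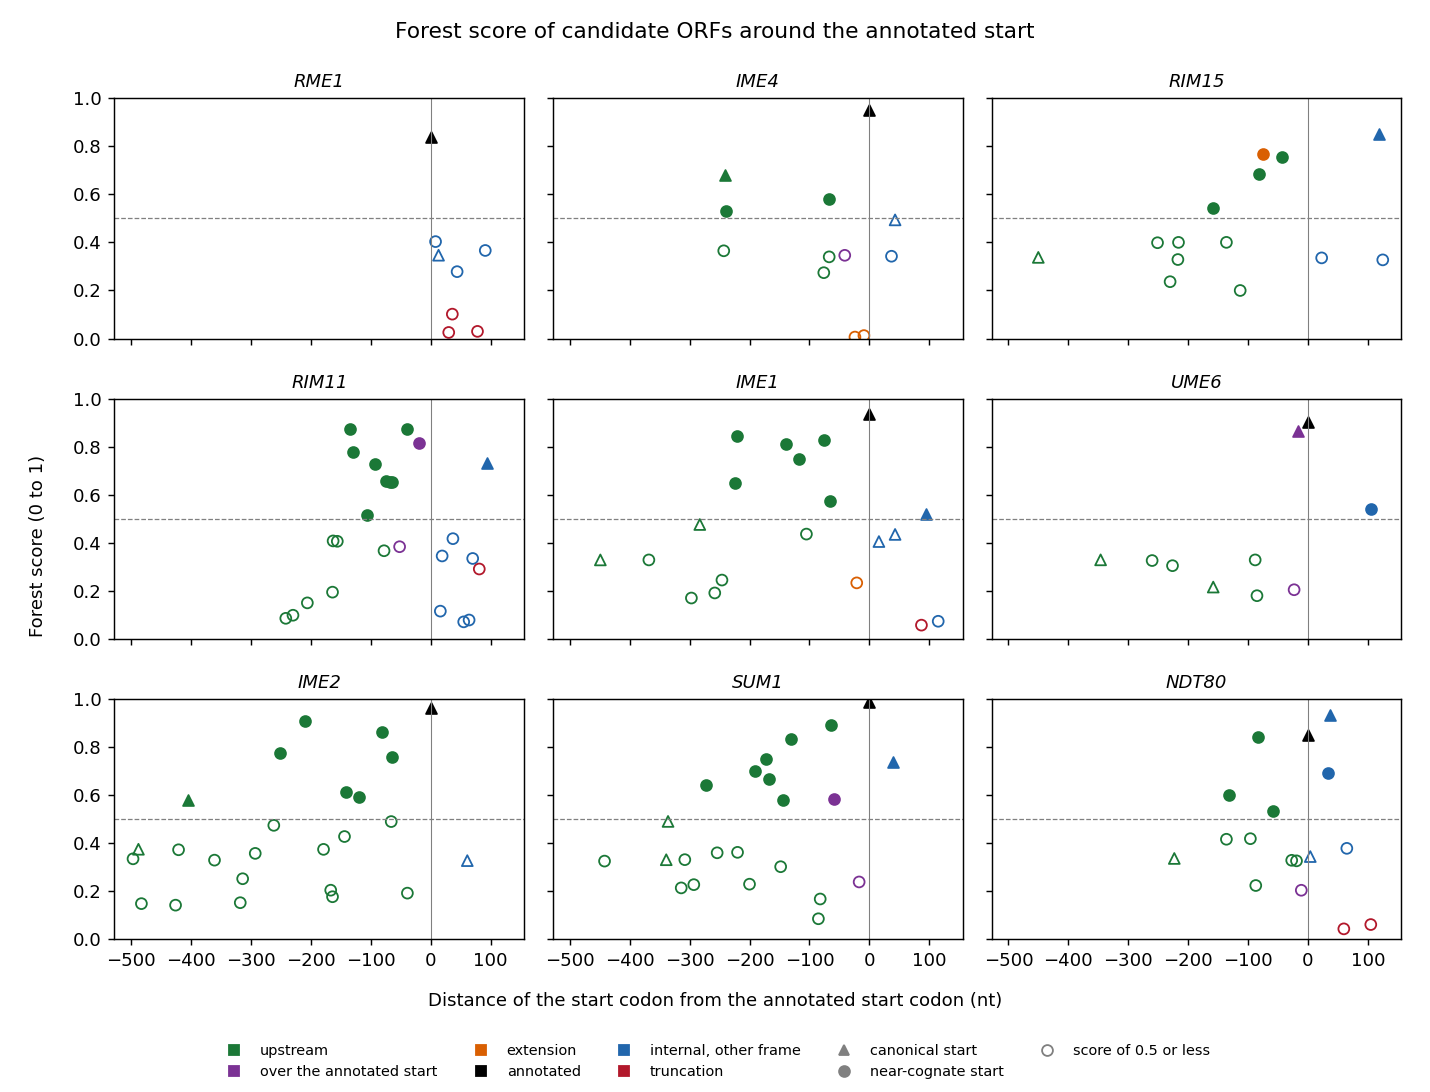
Forest score of the candidate ORFs that start in the leader or early in the coding region (vertical axis, 0 to 1) against the distance of its start from the annotated start (horizontal axis, nt, negative before the AUG) in the 9 genes; triangles are AUG and circles near-cognate starts, colours give the class, filled symbols are above 0.5 (dashed line). The rated upstream starts of IME1, RIM11 and SUM1 lie at most 272 nt before the AUG, and UME6 has no rated upstream ORF.

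Genes differed in how many rated upstream ORFs they held. RIM11 had 8, IME2 and SUM1 had 7 each, IME1 had 6, and IME4, RIM15 and NDT80 had 3 each. Over the 4759 genes with an upstream candidate the median was 1. At least 8 were found in 1.70% of them, at least 7 in 2.73%, at least 6 in 4.77% and at least 3 in 20.7%. These counts are not adjusted for the number of candidates, whose median over those genes was 5. RIM11 had 15 candidates, IME2 23, SUM1 19 and IME1 13. The rated shares were 53.3% in RIM11, 30.4% in IME2, 36.8% in SUM1 and 46.2% in IME1, beside 22.0% in the table. UME6 had 6 upstream candidates and none rated, as in 41.8% of genes, and RME1 had no upstream candidate.

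**Figure D2:**
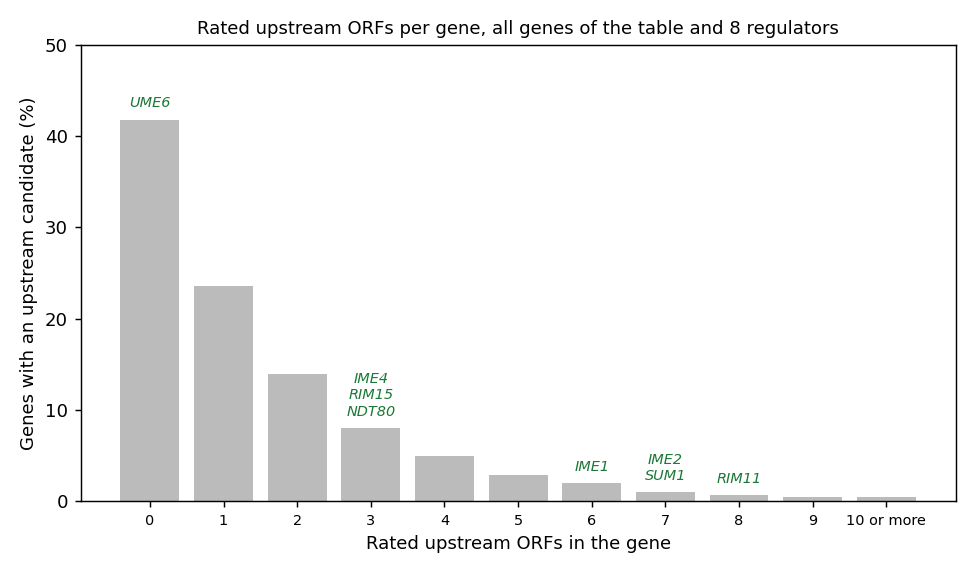
Bars give the percentage of the 4759 genes with an upstream candidate (vertical axis) that hold each number of rated upstream ORFs (horizontal axis), and gene names mark the 8 regulators with such a candidate. RIM11, with 8, stands farthest to the right of them, and UME6 is at 0. Counts are not adjusted for the number of upstream candidates of a gene.

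Among the inputs, RME1 (YGR044C, chromosome 7, 586491 to 587393, minus strand; all gene coordinates are on SK1, as deposited) encodes a zinc-finger repressor of IME1. Its annotated AUG had a score of 0.839 and LTM evidence of 874. All of its other 5 rated ORFs lay inside the coding region: a UUG 545 nt after the AUG with an ORF of 2 codons (score 0.841), an AAG at 608 nt (0.714) and an AUG at 244 nt with 19 codons (0.617) were the highest. Their LTM evidence was 0.0293, 0.0180 and 0.00536 times that of the annotated AUG. The authors' notes warn of many false positives among ORFs inside coding regions, from elongating ribosomes, and this holds for every internal ORF below.

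IME4 (YGL192W, chromosome 7, 147685 to 149487, plus strand) encodes the mRNA N6-adenosine methyltransferase of meiotic cells. Its annotated AUG had a score of 0.951 and LTM evidence of 9988. Of 6 upstream candidates 3 were rated: an AUG 241 nt before it with 3 codons (score 0.682), a GUG at 239 nt with 46 codons (0.529) and an AUU at 68 nt with 7 codons (0.581). All were faint beside the annotated start, with LTM evidence of 6.48, 4.89 and 6.56, at most 0.000656 times it. The upstream start with the highest LTM evidence, a UUG at 67 nt (19.4), was not rated (0.340). It lies 1 nt after the AUU start. Neither of its 2 extension candidates was rated (scores 0.00604 and 0.0122).

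RIM15 (YFL033C, chromosome 6, 74361 to 79652, minus strand) encodes a kinase that acts when glucose is lacking and protein kinase A is inactive. It held the only rated extension among the 9 genes (1 of 4 candidates, beside 4.57% in the table). This was an AUU 25 codons before the annotated AUG, at 79727, that gives a protein of 1788 instead of 1763 residues, with a score of 0.770. By score it was 28th of the 97 rated near-cognate extensions. Its LTM evidence was 255 and its CHX evidence 1500. The annotated ORF of RIM15 has no row, so the AUU could not be set against the AUG. The other candidates with the same stop codon were 3 truncations, with scores of at most 0.0157. The CHX value of the AUU was the highest of these starts (ratio 1), with no AUG value beside it. Whether its score and CHX evidence belong to the AUU or to the AUG ORF was not tested. RIM11 also lacks an annotated row, and there an unrated ACG truncation at 81 nt had CHX evidence of 1279 and that ratio at 1.

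The extension depends on the reading frame of the SK1 leader. In S288C no AUU stands 75 nt before the AUG. One stands 77 nt before it and opens an ORF of 17 codons instead of the extension. The AUC that SK1 has 82 nt before the AUG was rated with an ORF of 16 codons (score 0.685, LTM evidence 92.7). Its match in S288C lies 84 nt before, in frame with RIM15, and opens 1798 codons. That length includes the S288C coding region of 5313 nt, against 5292 nt in SK1. Of the 5 SK1 starts from 75 to 159 nt before the AUG, all had the same codon in S288C 2 nt farther out and none at the same distance. The UUG at 44 nt had its codon and its ORF of 6 codons at the same distance in both. The 5 starts farther out, from 216 to 450 nt, had their codon at neither distance. The SK1 bases themselves were not read.

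That UUG was the strongest of the upstream starts of RIM15, with a score of 0.756 and LTM evidence of 833, which is above that of the AUU extension. An AUU at 159 nt with 21 codons was rated as well (score 0.545, LTM evidence 7.06). Inside the coding region an AUG 118 nt after the annotated start, out of frame with 14 codons, had a score of 0.852 and LTM evidence of 619. In S288C 1 other AUG lies between it and the annotated start.

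RIM11 (YMR139W, chromosome 13, 536285 to 537397, plus strand) encodes a kinase of the GSK-3 family that phosphorylates Ime1 and Ume6. Of its 15 upstream candidates 8 were rated, all near-cognate, since it has no upstream AUG candidate. That is the highest count of the 9 genes at a score above 0.5, but not by stop codon (3, against 5 each in IME2 and SUM1 and 4 in IME1) or above 0.8 (2, against 3 in IME1). They began between 134 and 39 nt before the AUG. A UUG at 134 nt with 26 codons had the highest score (0.873, LTM evidence 245), with an ACG at 39 nt with 8 codons next to it (0.872, LTM evidence 162). The highest LTM evidence, 283, was at an ACG at 93 nt with 26 codons (score 0.728).

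The UUG at 134 nt ends at the same stop as an AUA at 107 nt (0.515), a CUG at 74 nt (0.656), an AAG at 68 nt (0.651) and an AUC at 65 nt (0.652), whose LTM evidence was 91.1, 44.4, 44.9 and 59.2. These 5 starts are nested in 1 reading frame. An AUU at 130 nt with 8 codons was rated at 0.777. Both ACG ORFs end 12 nt before the AUG. A further ACG at 19 nt opens an ORF of 12 codons over the annotated start (score 0.815, LTM evidence 23.5). The annotated ORF of RIM11 has no row either, so no ratio to its AUG could be formed. An AUG 94 nt inside the gene, with 12 codons, had the highest score of the rated internal starts (0.733), and in S288C it is the next AUG after the annotated one. An AUG at 1066 nt with 5 codons scored 0.635.

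At the switch itself, IME1 (YJR094C, chromosome 10, 619230 to 620312, minus strand) had its annotated AUG rated at 0.936 with LTM evidence of 1074. Of 13 upstream candidates 6 were rated, none of them AUG. A UUG 139 nt before the AUG, with an ORF of 12 codons that ends 100 nt before it, had LTM evidence of 964. That is 0.898 times the value of the annotated AUG and the highest such ratio among the 26 rated upstream ORFs that could be compared (score 0.811). Of rated upstream ORFs over all genes 21.1% exceeded 0.5 times their annotated start, against 1 of these 26. A ratio of 0.1 was exceeded by 34.0%, against 3 of 26, and a ratio of 1 by 16.8%, against none of 26.

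The UUG of IME1 was matched by hardly any CHX evidence, at 0.00967 against 81.7 at the annotated AUG. The deposited regression value from CHX footprints differed less, at 0.0591 against 4.98. An AUA at 118 nt in the same frame was like the UUG, with LTM evidence of 254 and CHX evidence of 0.00845 (score 0.750). A CUG at 75 nt with 11 codons showed the other pattern: its LTM evidence was 98.9 and its CHX evidence 12.1, the highest of the upstream starts of IME1 (score 0.830). A CUG at 221 nt with 31 codons had the top score of the leader (0.845, LTM evidence 83.1, CHX evidence 0.535). It runs past the UUG start in another frame. An AUU at 66 nt (0.574) and an AUA at 225 nt (0.650) completed the set. Both upstream AUG candidates, at 283 and 449 nt, stayed below the cut-off (0.476 and 0.328). An AUU extension of 7 codons was not rated (0.233).

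UME6 (YDR207C, chromosome 4, 881787 to 884297, minus strand), the DNA-binding partner of Ime1, had upstream candidates but none rated. It was the only such gene among the 8 with upstream candidates. Its annotated AUG had LTM evidence of 40939 and a score of 0.901. The highest LTM evidence of its 6 upstream candidates was 0.00708, at an AUG 158 nt before it, and their scores ran from 0.180 to 0.329. Its 1 strong start before the gene was an AUG 17 nt before the annotated AUG that opens an ORF of 7 codons over it in another frame. It had a score of 0.866 and LTM evidence of 818, which is 0.0200 times that of the annotated AUG. Of AUG starts of this class 52.4% were rated in the table. The S288C sequence holds both AUG codons, here in capitals, in a window of 29 bases.
UME6 overlapping and annotated AUG, chrIV:867517-867545: atttgcATGgaccttaactcacgATGcta

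Inside UME6 6 of 26 candidates were rated and inside RME1 5 of 17, beside 10.3% in the table. Those of UME6 had LTM evidence of at most 8.19. The highest score, 0.602, belonged to an AUG 244 nt inside the gene with 8 codons. The pair with the lowest rated scores of all 9 genes was also here, an AUC at 1286 nt (0.506) and an AUG at 901 nt (0.506), next to the RIM11 AUA at 0.515. Just under the cut-off lay an IME4 internal AUG at 43 nt (0.494), a SUM1 upstream AUG at 336 nt (0.490) and an IME2 upstream AUU at 66 nt (0.489).

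IME2 (YJL106W, chromosome 10, 231829 to 233766, plus strand), the meiosis-specific kinase that Ime1 switches on, had an annotated AUG with a score of 0.964 and LTM evidence of 9458. Of 23 upstream candidates, the most of the 9 genes, 7 were rated. A UUG 210 nt before the AUG with 12 codons had the highest score of all 37 rated upstream ORFs, 0.910, and LTM evidence of 1143, which is 0.121 times that of the annotated AUG. An AUA at 252 nt is in frame with it and ends at the same stop, 171 nt before the AUG (26 codons, score 0.773, LTM evidence 723).

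Nearer the gene, a GUG at 82 nt with 6 codons was rated at 0.861 (LTM evidence 237). A CUG at 119 nt with 26 codons and a UUG at 65 nt with 8 codons shared a stop 38 nt before the AUG. The CUG had the stronger LTM evidence (138 against 42.9) and the UUG the stronger CHX evidence (11.6 against 0.000239). A GUG at 142 nt with 3 codons (0.614) and an AUG at 405 nt with 5 codons (0.578) were faint, with LTM evidence of 2.36 and 1.77. None of the 14 internal candidates of IME2 was rated, beside 10.3% in the table, and it had no truncation candidate.

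At the later switch, SUM1 (YDR310C, chromosome 4, 1079629 to 1082817, minus strand), the repressor of middle genes, had the highest annotated score of the 7, 0.987, above 99.9% of annotated ORFs in the table, with LTM evidence of 13469. Of 19 upstream candidates 7 were rated. The leading pair began with GUG and had 12 codons each. The one at 130 nt had LTM evidence of 1276 and a score of 0.833. The one at 64 nt had LTM evidence of 1060, a score of 0.889 and CHX evidence of 128, above the 119.7 of the annotated AUG. Their LTM evidence was 0.0948 and 0.0787 times that of the AUG.

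The 5 other rated upstream ORFs of SUM1 were an AUA at 191 nt (0.699) and an AUA at 173 nt (0.752) with a common stop, a CUG at 168 nt (0.666) and an AUA at 144 nt (0.580) with another, and a UUG at 272 nt with 14 codons (0.640). Their LTM evidence ran from 14.8 at 144 nt to 388 at 191 nt. An AUU at 59 nt opened an ORF of 31 codons over the annotated start (0.581, LTM evidence 9.98). Inside the gene 1 ORF was rated, at an AUG 40 nt after the annotated start with 12 codons (score 0.738, LTM evidence 376, 0.0279 times the annotated AUG). In S288C this is the next AUG after the annotated one.

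NDT80 (YHR124W, chromosome 8, 355803 to 357686, plus strand), the activator of middle meiosis, was the only one of the 7 genes with an annotated row whose strongest LTM evidence was not at the annotated AUG. That AUG had a score of 0.849 and LTM evidence of 1214. An AUG 37 nt inside the coding region, in another frame and with an ORF of only 10 codons, had LTM evidence of 3521, 2.90 times that of the annotated AUG, and a score of 0.934. The CHX evidence was in the other order, 1.03 at the internal AUG and 57.1 at the annotated one. Some unrated starts of NDT80 had more CHX evidence than its annotated AUG. Among them were an AUG truncation at 1200 nt (253) and an internal UUG at 205 nt (212). In S288C 2 other AUG codons lie between the annotated AUG and the internal AUG at 37 nt. The one 4 nt after the annotated AUG, in the frame of the internal AUG and with its stop codon, had LTM evidence of 15.9 and was not rated (0.344). Both starts shown above have an A 3 bases before the codon.

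Internal AUG codons close to the start were common in the table: 59.0% of 2992 such candidates within 120 nt were rated, against 5 of 11 in these genes. LTM evidence above that of the annotated start was found for 13.8% of the 2684 whose gene has an annotated ORF in the table, and for 1 of 9 here, that of NDT80. An AGG at 34 nt shares the frame and stop of the internal AUG (score 0.691, LTM evidence 26.2), 1 codon before it.

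The leader of NDT80 held weaker starts. Of 9 upstream candidates 3 were rated, all UUG. The one at 84 nt with 16 codons led with a score of 0.840 and LTM evidence of 63.8, 0.0525 times the annotated AUG. Those at 132 nt with 11 codons (0.599) and at 59 nt with 4 codons (0.532) had LTM evidence of 3.36 and 1.21. The single upstream AUG, at 223 nt, had a score of 0.336 and LTM evidence of 0.0232.

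**Figure D3:**
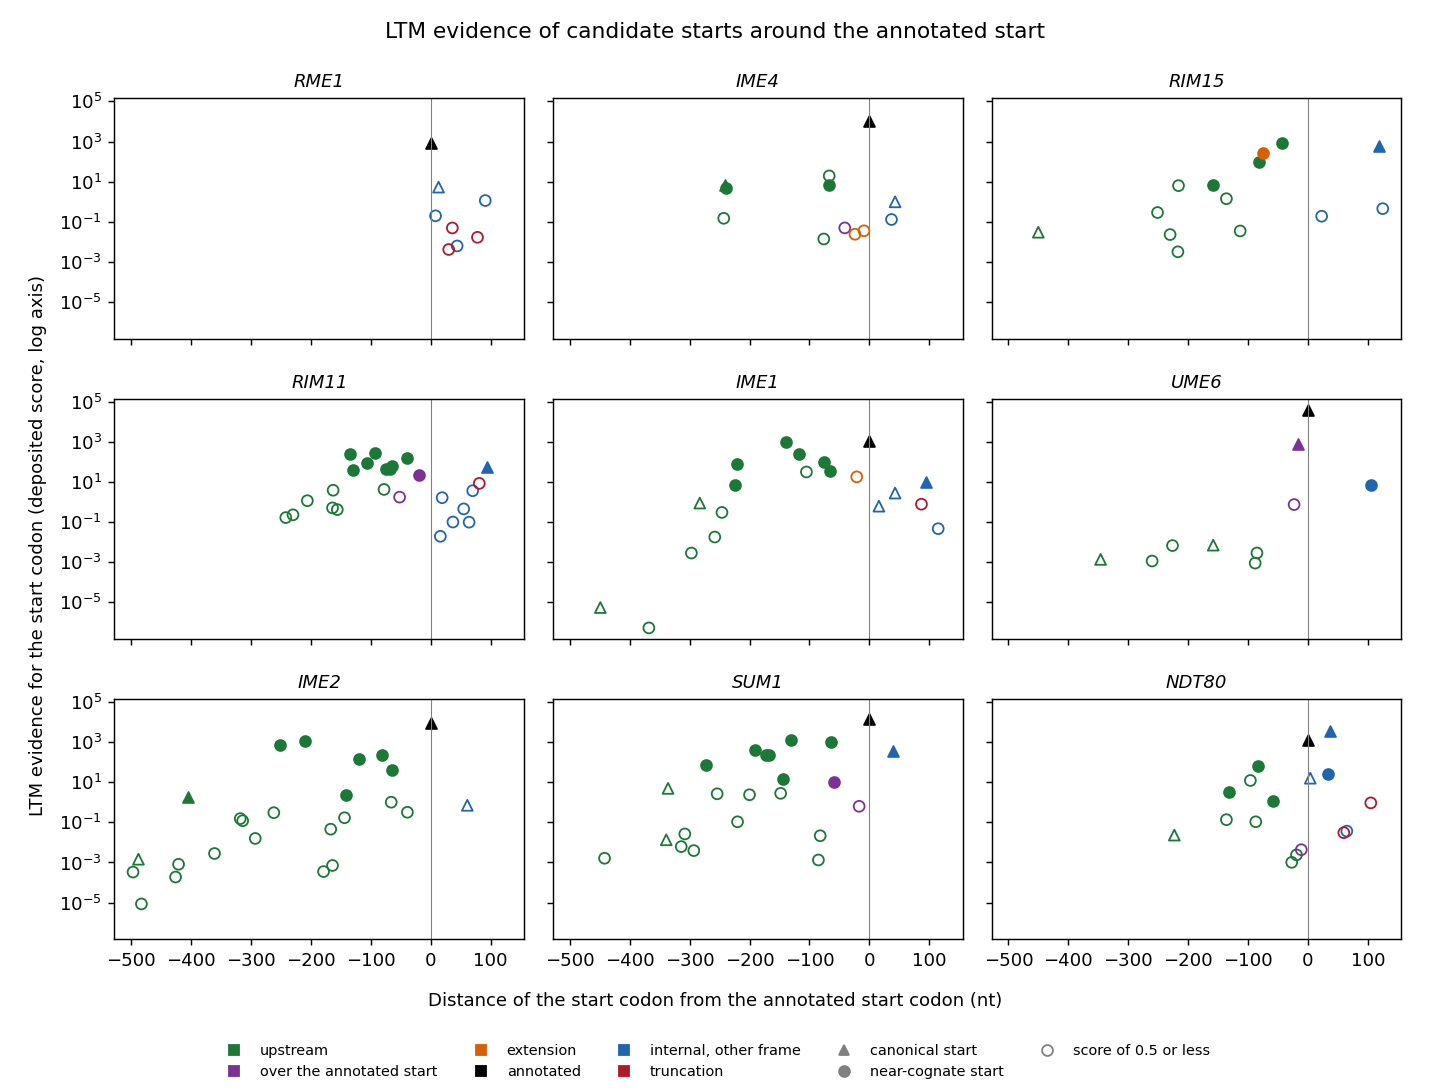
LTM evidence for the candidate starts in the leader and early in the coding region (vertical log axis, the deposited score) against its distance from the annotated start (horizontal axis, nt), with symbols as in the plot of forest scores. In IME1 the UUG at 139 nt (964) comes close to the annotated AUG (1074), in NDT80 an internal AUG (3521) lies above the annotated one (1214), and in UME6 the upstream starts are all under 0.01; annotated starts of RIM11 and RIM15 have no row.

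The upstream starts were also set against the annotated AUG of their own gene in both kinds of evidence, a comparison added after the values had been seen. Of the 26 rated upstream ORFs with an annotated row, 14 had a lower ratio in CHX than in LTM evidence, beside 64.1% of 6288 over all genes. Within genes these were 5 of 6 in IME1, 6 of 7 in IME2, 3 of 7 in SUM1 and none of 3 each in IME4 and NDT80. The annotated AUG did not always have the highest CHX evidence of its gene. An unrated internal CUG of IME1 at 343 nt had 1.16 times it, and an unrated AUG truncation of NDT80 at 1200 nt 4.44 times. No start exceeded the annotated AUG in IME2 or IME4. The UUG of IME1 at 139 nt had 0.898 times the LTM and 0.000118 times the CHX evidence of its AUG. The GUG of SUM1 at 64 nt lay the other way, with 0.0787 times the LTM and 1.07 times the CHX evidence. Both kinds of evidence entered the forest score, so neither is an independent check of it.

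**Figure D4:**
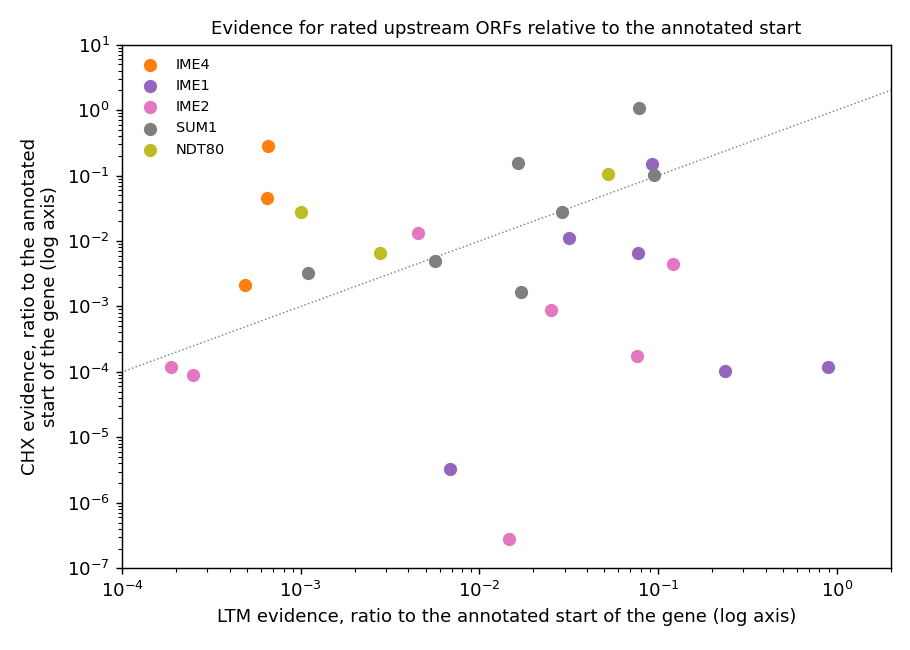
CHX evidence (vertical log axis) against LTM evidence (horizontal log axis) of 26 rated upstream ORFs, each divided by the value at the annotated start of its own gene, coloured by gene; the dotted line marks equal ratios. Below the line lie 14 points, 11 of them from IME1 and IME2, and all points of IME4 and NDT80 lie above it.

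The pathway around these regulators was read from 7 lists of 43 further genes. The table holds annotated ORFs for 36 of them, of which 34 were rated, and 88 of 338 upstream candidates (26.0%, beside the 22.0% of the table). In the Rim101 pathway, which relays external pH and is needed for full IME1 expression, 17 of 46 upstream candidates were rated, in all 7 genes, led by RIM21 with 5. Annotated ORFs below the cut-off were those of RIM20 (0.356) and DFG16 (0.217), both in this list. Among subunits linked to the Ume6 corepressor 13 of 38 were rated (34.2%), 7 of them in SIN3, the scaffold that carries the deacetylase Rpd3. Of signalling genes through Ras and protein kinase A 29 of 119 were rated (24.4%), led by MSN2, a stress-response activator, with 6.

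In the mRNA methylation complex and its reader 8 of 35 were rated (22.9%, beside 22.0% in the table), led by PHO92 (4), the reader of methylated mRNA. RFM1 held the 2 rated among 11 of the Sum1 partners (18.2%), and YGK3 3 of the 4 among 24 in the GSK-3 kinases (16.7%). GPR1, a glucose receptor, held 7 of the 15 among 65 in the other regulators (23.1%). Of 22 extension candidates in the 43 genes, all near-cognate, 4 were rated, beside 3.64% of near-cognate extensions in the table. MUM2, a subunit of the methylation complex, had a UUG 17 codons upstream (score 0.736, LTM evidence 0.105 times that of its AUG). MSN4 had a GUG 26 codons upstream (0.738, 0.455 times), MCK1 an AUC 19 codons upstream (0.641, 0.0252 times) and IDS2, a regulator of Ime2, an AUA 18 codons upstream (0.552, 0.464 times).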

How the data were processed

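The submitters' processing notes name Bowtie2, CASAVA and bcl2fastq 2.17, without settings. The deposited table gives 1 forest score per candidate ORF. Per the notes deposited with it, a random forest used 6 regression features of the LTM and CHX data, 1 of which is a deposited ratio, the CHX value of a start divided by the highest among starts that share its stop codon. The deposited rating is a score adjusted for overfitting. Column names end in nosat, which is not explained. Depth is unknown, so no interval was formed.

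Rows were joined to genes by the deposited SK1 annotation. Distances run between first bases of start codons, and coordinates count from 1. The 7 annotated rows matched the annotation. In S288C (R64), 340 of the 403 starts kept codon and ORF length at the same distance, 11 did so within 5 nt, and 52 did not. Of these 52, 43 were in RIM15, whose coding region has 5292 nt in SK1 and 5313 nt in S288C. The placement was tested on simulated data. Symbols of VIR1 and PHO92 came from R64.

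Percentages over the table are the background, and no test was run. The text names the annotated ORF of each gene, every rated ORF outside the annotated class (of internal ones only the 10 highest scores), the 3 scores on each side of the cut-off, the strongest upstream start per gene, and pathway genes with a rated extension, an unrated annotated ORF or the most rated upstream ORFs; values beside these were chosen after they were seen. Members and lists were chosen with earlier results of these data known. Python 3.11.15 and pandas 2.3.3 were used.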

Additional observations from a re-analysis of the deposited data

How the results depend on the processing

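The counts follow the cut-off. Over all classes 349 candidates passed a score of 0.1, 22 passed 0.8 and 7 passed 0.9. All 69 rated ORFs also had a deposited rating above 0.5. That rating is derived from the score and given only above 0.5, so this is not a separate check. Of upstream candidates 98 passed 0.1 (97.0%, beside 97.6% in the table), 10 passed 0.8 (9.90%, beside 4.92%) and 1 passed 0.9 (0.990%, beside 1.15%), so the share was above that of the table at 0.5 and 0.8 and below it at 0.1 and 0.9. Inside or over the end of coding regions 230, 3 and 1 passed. With AUG starts only, 2 rated upstream ORFs are left, with at least 10 codons 19, and with each stop codon counted once 26. Against the strongest start of the gene, 39 of 45 ratios of LTM evidence were the same and 6 moved, all in NDT80, whose internal AUG then serves as the reference. No paired analysis was possible because each group has 1 library and the deposited values are not split by library.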

Other observations

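Before RME1 the table holds 13 candidates filed under YGR045C, an ORF on the same strand that ends 41 nt before the RME1 coding region. They are not among the 403, and whether they lie on the RME1 mRNA was not tested. Of them 4 were rated, where 13.5% of candidates of all classes in the table were. A share for their own class was not computed. An ACG 128 nt before the AUG of RME1, with 28 codons, had a score of 0.882, LTM evidence of 1098 and CHX evidence of 100.3. Its ORF ends 41 nt before that AUG, where YGR045C itself ends, so it shares the end of that annotated ORF. A UUG 39 nt (score 0.712), an AUA 51 nt (0.680) and an AUU 33 nt (0.600) before the AUG end at 1 common stop codon, with LTM evidence of 313, 306 and 145. The 3 AUG candidates in that stretch were not rated, with scores from 0.209 to 0.383. These values were looked up after the absence of upstream candidates in RME1 had been seen.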
